A study of Mus musculus with 24 samples.

Results

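Immediate early genes are switched on within minutes of a stimulus, from transcription factors already present in the cell, and their mRNAs are short-lived. The 10 genes described here are Fos, Fosb, Jun, Junb, Egr1, Ier2, Atf3, Nr4a1, Dusp1 and Zfp36. They were chosen by symbol among the 16118 genes of the deposited table, and all 10 were among the 16005 tested. They were followed across 6 groups of 4 mice, in RNA of the subcutaneous inguinal white fat, with 1 library for each mouse. Males and females were taken at postnatal day 21 (p21). The other mice were 28 days old (p28). Those of standard weaning (SW) left their mother at day 21, and those of delayed weaning (DW) stayed with her. The labels of the p21 animals also read SW, and no label used here names a strain, a treatment or a genetic change. Animals are called by the numbers in their labels.

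In textbook accounts, signals such as growth factors, catecholamines, stress or handling reach these genes through ERK and p38 kinases, SRF with its ternary complex factors, and CREB. Fos, Fosb, Jun, Junb and Atf3 encode bZIP proteins that pair into AP-1 and related dimers. Egr1 encodes a zinc finger factor, Nr4a1 an orphan nuclear receptor and Ier2 a small nuclear protein. Dusp1 and Zfp36 feed back on the response: Dusp1 encodes a phosphatase that inactivates MAP kinases, and Zfp36 encodes tristetraprolin, which binds AU-rich elements and speeds mRNA decay. Handling and tissue dissection are themselves known triggers of these genes.

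Reads assigned to the listed genes ranged from 57600711 to 302145813 per library. Adipocyte markers were present in every animal, with a summed level of 15055 to 27706 and no marker of that list at 0. Bulk tissue does not tell fewer cells of a type from less RNA per cell. Some libraries stood apart. DW females 82 and 83 read GC-rich transcripts low: genes in the highest of 40 GC bins lay -0.83 and -1.30 (log2) against the lowest bin, compared with 0.46 and 0.31 in DW females 76 and 77. P21 male 37 lay at -0.72 and SW female 81 at 0.65. The members are GC-rich, at 51.9% (Fos) to 62.6% (Junb) of transcript bases against 49.7% for the median gene. Results that rest on DW females 82 and 83 are given with and without them.

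Promoters are shown because their signal-response elements differ between members. The 150 bases before the RefSeq start (GRCm38.p6) were searched for 8 of the 10 members. Egr1 and Ier2 were not searched, and the counts below do not cover them. Elements farther from the start and variants of the patterns below were not searched. Motifs were searched on both strands: the cAMP response element (CRE) TGACGTCA, its half-site TGACG, the EGR sites GCGGGGGCG and GCGTGGGCG, the AP-1 site TGACTCA, and the CArG box bound by SRF. TATAAA was searched on the gene's strand only. The half-site lies within the full CRE. Capitals mark matches, and sequences run 5′ to 3′ toward the start.
Fos, chr12:85473740-85473889, plus strand: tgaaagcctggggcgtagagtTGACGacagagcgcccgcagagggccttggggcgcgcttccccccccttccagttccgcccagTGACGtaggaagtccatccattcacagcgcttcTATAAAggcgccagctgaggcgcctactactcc
Junb, chr8:84978749-84978898, minus strand: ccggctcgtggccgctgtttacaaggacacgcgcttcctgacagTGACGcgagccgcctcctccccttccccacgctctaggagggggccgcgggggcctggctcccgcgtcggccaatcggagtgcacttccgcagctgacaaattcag
Nr4a1, chr15:101266696-101266845, plus strand: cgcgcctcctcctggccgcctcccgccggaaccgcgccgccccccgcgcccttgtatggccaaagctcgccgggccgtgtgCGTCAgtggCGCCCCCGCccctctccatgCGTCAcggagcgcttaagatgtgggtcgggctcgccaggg
Dusp1, chr17:26508473-26508622, minus strand: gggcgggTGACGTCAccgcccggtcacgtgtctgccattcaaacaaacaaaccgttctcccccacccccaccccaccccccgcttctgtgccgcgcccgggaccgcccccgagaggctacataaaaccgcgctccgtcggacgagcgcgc
Zfp36, chr7:28379229-28379378, minus strand: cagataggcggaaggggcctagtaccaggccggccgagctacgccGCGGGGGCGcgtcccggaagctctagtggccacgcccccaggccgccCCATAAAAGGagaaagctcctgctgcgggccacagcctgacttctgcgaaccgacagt

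Fos held the half-site at -129 and -66 and TATAAA at -33. Junb held 1 half-site at -106. Nr4a1 held an EGR site at -60 between half-sites at -69 and -40, all read on the opposite strand. Dusp1 was the member with a full CRE, at -143. Zfp36 held an EGR site at -105 and a CArG box at -58. Of the 8 members, 6 held a half-site, against 13.3% of 32851 mouse promoter windows of the same length, and 3 held an EGR site, against 2.49%. A full CRE stood in 1 member (1.36% of windows), a CArG box in 1 (0.916%), TATAAA in 1 (4.84%) and the AP-1 site in 0 (2.84%). Positions count from the RefSeq start, and the nearest GENCODE M21 start lay at 30 from it for Junb and at -27 for Zfp36. The member windows held 58% (Jun) to 75.3% (Nr4a1) GC, and the background windows were not matched to them for GC, so the shares are not like for like. These matches describe letters in a window and not binding.

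Levels differed widely between members. The values are the authors' normalised reads. Divided by the length of each gene's joined exons, the mean over 24 animals was highest for Zfp36 (25.6 per kb), Dusp1 (19.3) and Egr1 (13.1). Jun (7.22 per kb), Nr4a1 (4.56) and Ier2 (4.33) came next. Junb (1.50), Fos (1.28), Atf3 (0.879) and Fosb (0.475) were lowest. The feedback genes thus stood above every AP-1 subunit on the per-kb scale. Within the normalised values, the highest animal exceeded the lowest by 2.44 times for Jun, 2.87 for Zfp36 and 3.45 for Dusp1, but by 9.59 times for Fos, 13.5 for Junb and 22.7 for Fosb. Atf3 had 1 read in p21 male 53 (0.0154 normalised) and reached 4.03 in SW female 73.

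**Figure D1:**
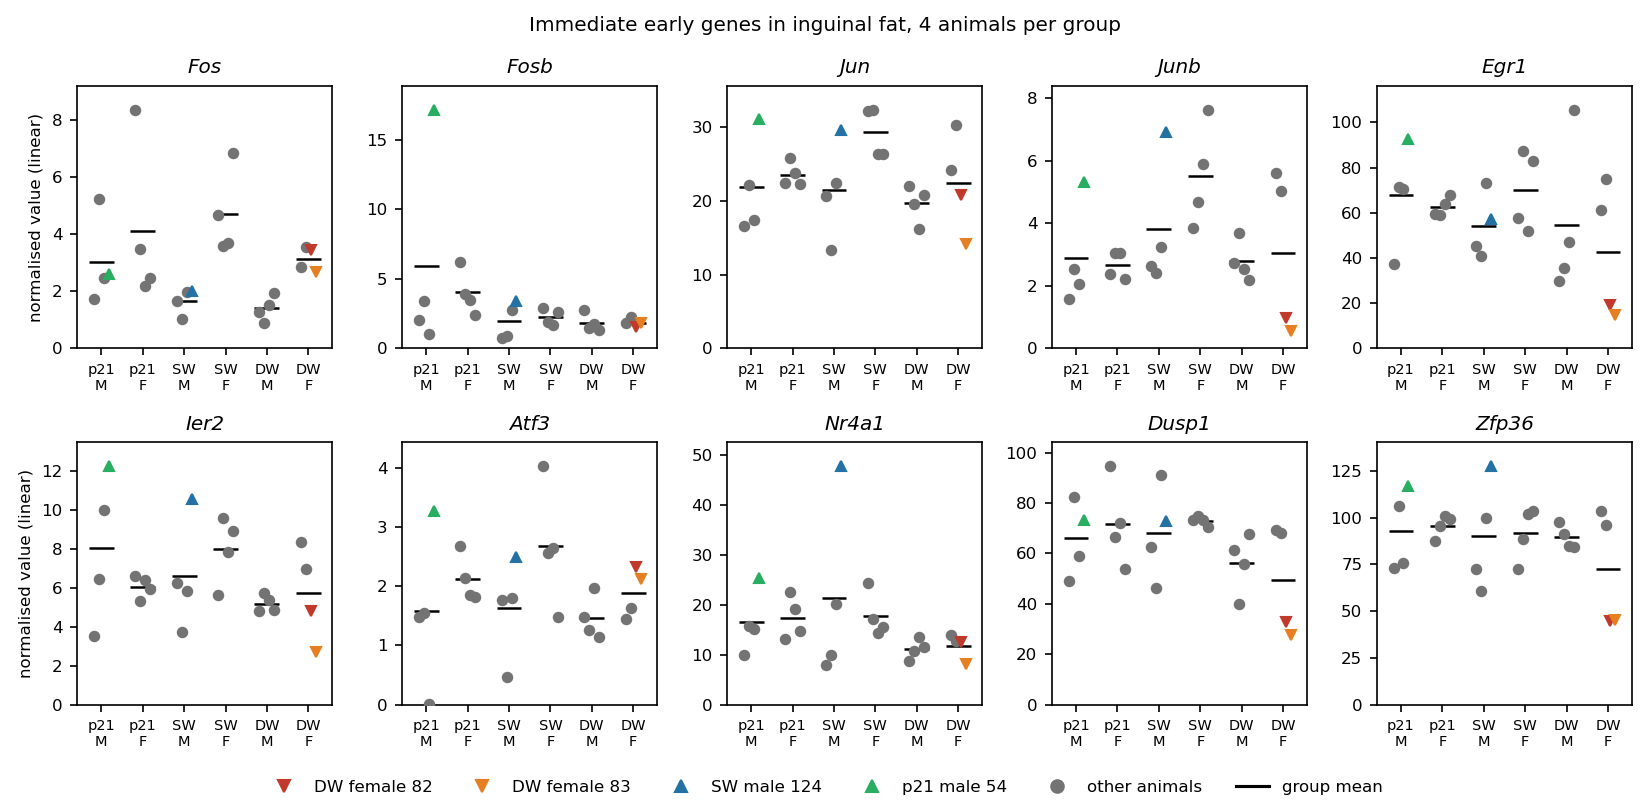
Normalised values (linear scale, from 0) of the 10 genes in every animal, with 6 groups on the horizontal axis, points for animals and bars for group means. Fos at p28 sits higher in females than in males, DW females 82 and 83 sit low for Junb, Egr1, Dusp1 and Zfp36, and p21 male 54 has the highest Fosb value, 17.1.

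Fos was the member that differed between the sexes at p28. In SW males it read 1.66, 1.04, 1.96 and 2.00 (animals 78, 84, 85 and 124). In SW females it read 4.68, 3.57, 3.70 and 6.82 (animals 73, 74, 75 and 81). Every female lay above every male, a lack of overlap seen for 7.77% of all genes. The means were 1.66 ± 0.444 and 4.69 ± 1.50 (SD, n = 4 each). Tests were run on log2(value + 1), where the added 1 shrinks the differences of genes with low values. On that scale males minus females was -1.08 (95% interval -1.65 to -0.51, limma adjusted p = 0.0239). The authors' deposited table gives a log2 fold of 1.49 for SW females over SW males. Genes called lower in males made up 3.36% of all genes tested, and 3.54% were called in either direction. None of the other 9 members was called. All 10 lay lower in males, with a median of -0.33 against -0.01 for all genes tested, and Jun was the other member with an unadjusted p under 0.05 (-0.48, limma adjusted p = 0.469). With tissue marker scores as covariates, 8 of the 10 lay higher in males and 2 lower, with a median of 0.35. Those scores include the mammary markers, whose sums did not overlap between SW males (68.02 to 98.8) and SW females (407 to 486). Such a fit can hardly tell sex from mammary markers, so its signs decide nothing about either.

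Animal numbers form runs, which no label calls a batch. In the run 73 to 80, SW male 78 lay below the mean of SW females 73, 74 and 75 for 10 of 10 members, with Fos at -0.90. In the run 81 to 87, the mean of SW males 84 and 85 lay below SW female 81 for 10 of 10, with Fos at -1.67. SW male 124 belongs to neither run, and with 1 animal on a side these values carry no error. The Fos call depended on which animals and terms entered. Over 19 other settings the difference was negative in all 19 and called in 13, with adjusted p-values from 0.00334 to 0.861. Without SW male 84 it was -0.95 (limma adjusted p = 0.116), and without SW female 81 it was -0.91 (0.116). Without SW male 78 or SW female 73 the adjusted p was 0.0551 and 0.0675. With tissue marker scores as covariates it was -1.14 (adjusted p = 0.861, SE 0.586 against 0.275). Mammary epithelial markers moved with the difference: 9 of the 10 tested were called lower in SW males, and their summed level was 68.02 to 98.8 in SW males and 407 to 486 in SW females. Csn3, Krt5, Krt8, Krt14, Krt19 and Elf5 each read 0 in at least 1 of the 24 animals. Esr1, the marker not called, read at least 33.5 in every animal and Prlr at least 8.12. Esr1 and Prlr thus made up a large part of the sums in males. The part of these cells in the Fos difference was not tested.

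In the DW animals Fos showed the same order with a smaller gap. DW males 79, 80, 86 and 87 read 1.28, 0.870, 1.53 and 1.92, and DW females 76, 77, 82 and 83 read 2.86, 3.55, 3.44 and 2.66. The groups did not overlap, as was so for 10.9% of all genes. The difference of -0.80 (95% interval -1.37 to -0.22) was not called (limma adjusted p = 0.128), although DESeq2 on the recovered reads called it (-1.18, adjusted p = 0.0373). Without DW females 82 and 83 it was -0.82, and 10 of 10 members lay lower in males (median -0.38), against 6 of 10 (median -0.04) with all animals. In these animals limma called 0 of 10 members (2.46% of all genes were called), edgeR 0 and DESeq2 1, with 1 member under 0.05 unadjusted by each tool. Mammary marker sums lay between 49.97 and 77.3 for DW males and between 231 and 325 for DW females. At p21 the sexes overlapped for every member (3.97% of all genes did not overlap). Fos read 1.72, 5.24, 2.47 and 2.62 in males 37, 38, 53 and 54, and 8.35, 3.47, 2.17 and 2.48 in females 30, 36, 55 and 56. The p21 difference was -0.28 (95% interval -0.85 to 0.29), and 0 members were called or under 0.05 unadjusted by limma, edgeR or DESeq2 (0.356% of all genes were called by limma). The change of Fos from p21 to SW differed between the sexes by 0.80 (females minus males, 95% interval -0.01 to 1.61), which was not called (limma adjusted p = 0.617). For that contrast limma, edgeR and DESeq2 called 0 members, with 0, 0 and 1 under 0.05 unadjusted (1.03% of all genes were called by limma).

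Delayed weaning in females was compared with standard weaning next. No member was called by limma, edgeR or DESeq2 (1.27% of all genes were called by limma), and 3, 1 and 1 members had an unadjusted p under 0.05. All 10 lay lower in DW females, with a median difference of -0.46 against -0.02 for all genes. The largest were Egr1 (-0.98, 95% interval -1.85 to -0.12), Junb (-0.94, -1.71 to -0.16) and Dusp1 (-0.67, -1.21 to -0.13), with limma adjusted p of 0.226, 0.212 and 0.202. Dusp1, Fos and Nr4a1 did not overlap between the groups, as was so for 5.79% of all genes. Without DW females 82 and 83, 9 members lay lower and 1 higher, with a median of -0.09. Mammary marker sums did not overlap either, at 231 to 325 in DW females and 407 to 486 in SW females. Skeletal muscle markers summed to 5.61 to 2200 and 422 to 3634, with a median marker difference of -3.20. Neither list had a marker called, and their part in the differences was not tested.

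The difference rested mostly on animals 82 and 83. Egr1 read 60.99 and 75.0 in DW females 76 and 77 but 19.0 and 14.9 in 82 and 83, against 51.8 to 87.5 in SW females. Junb read 5.61 and 5.02 in the first pair, 0.957 and 0.567 in the second, and 3.84 to 7.63 in SW females. For both genes the first pair lay inside the SW range and the second pair below it. Dusp1, the MAP kinase phosphatase, read 69.2 and 68.02, then 32.6 and 27.4, against a narrow 70.4 to 75.0 in SW females. Zfp36 split the same way, at 103 and 96.1 against 44.5 and 45.3, with SW females at 72.7 to 104.

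Not every member split so. Fos read 2.86 and 3.55 in DW females 76 and 77, and 3.44 and 2.66 in 82 and 83. Atf3 was higher in 82 and 83 (2.32 and 2.11) than in 76 and 77 (1.44 and 1.63). Nr4a1 read 13.9, 12.7, 12.5 and 8.15, all below the SW females at 14.4 to 24.3. Without animals 82 and 83 the differences of Egr1, Junb and Dusp1 became -0.01, -0.01 and -0.09, and Zfp36 turned to 0.13. Fos went from -0.44 to -0.41, Nr4a1 from -0.55 to -0.37 and Atf3 from -0.32 to -0.49, none of them called (limma adjusted p = 1.00 for each). With only 2 DW females left, this fit borrows its spread from all groups.

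Other measures moved with this pair of animals. With the GC trend of each library removed, Egr1 lay -0.71, Dusp1 -0.56, Junb -0.53 and Ier2 -0.10 from SW females, again with none called. All 10 members still lay lower there in DW females, with a median of -0.30 and 3 under 0.05 unadjusted. Endothelial markers (8 of 8 measured, none at 0) summed to 1158 and 1022 in 82 and 83 and to 1633 and 1681 in 76 and 77, against 1485 to 2018 in SW females. Macrophage markers summed to 741 and 808 in 82 and 83, and to 1024 and 1043 in 76 and 77. The SW females lay at 735 to 911, so that 82 and 83 were inside their range and 76 and 77 above it. In the run 73 to 80 the 2 DW females lay lower than the 3 SW females for 6 of 10 members (median -0.07). In the run 81 to 87, DW females 82 and 83 lay lower than SW female 81 for 9 of 10 (median -1.02). The part of GC reading, cell content or run in the differences was not tested.

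**Figure D2:**
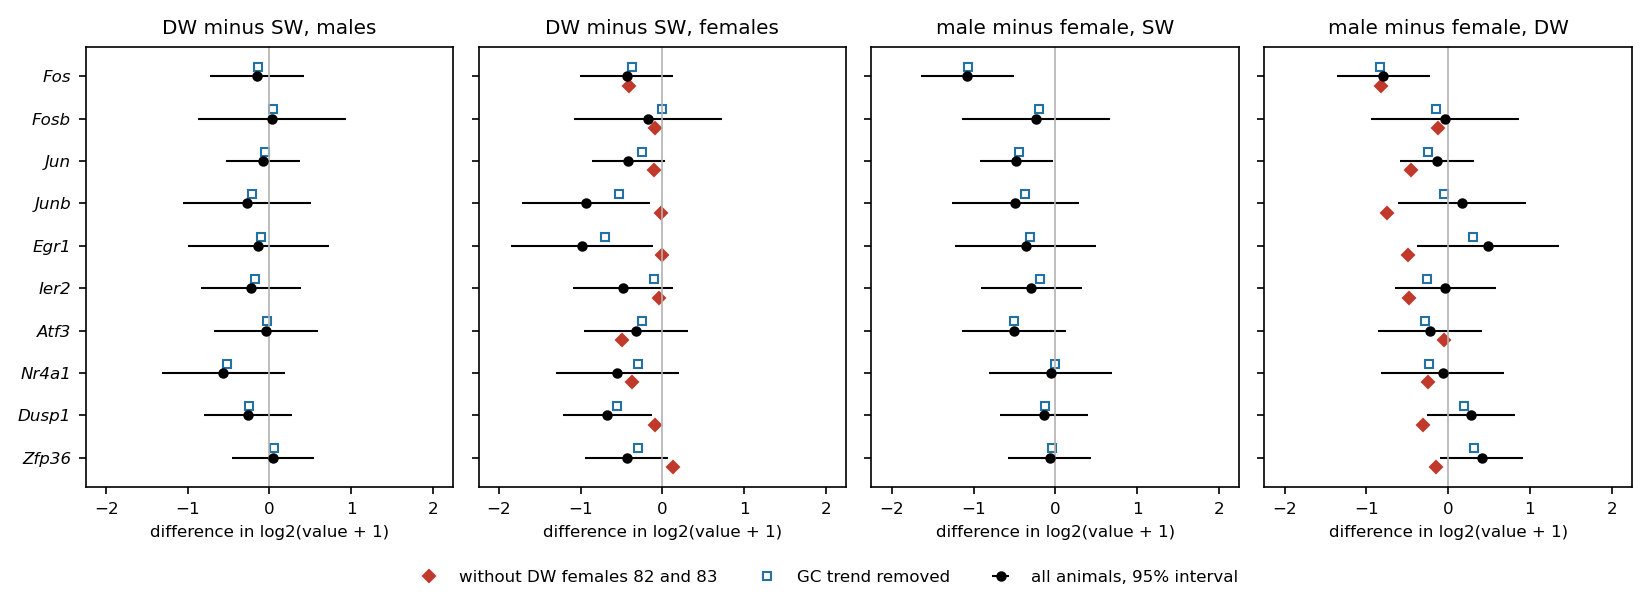
Differences in log2(value + 1) of each gene for weaning within each sex and for sex within each weaning group, with 95% intervals from limma on all animals (circles), after removal of each library's GC trend (squares) and without DW females 82 and 83 (diamonds). The intervals are not adjusted for the number of genes. That of Fos excludes 0 in both sex comparisons, and Fos was called in SW animals only. The intervals of Jun between the sexes in SW animals, and of Egr1, Junb and Dusp1 between DW and SW females, exclude 0 without a call. Egr1, Junb and Dusp1 in DW females move from -0.98, -0.94 and -0.67 to near 0 without the 2 animals.

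Males of the 2 weaning groups were compared in the same way. Limma, edgeR and DESeq2 called 0 members between DW and SW males, with 0, 1 and 1 under 0.05 unadjusted (0.256% of all genes were called by limma), and no member was free of overlap (8.73% of all genes were). The median difference was -0.15 against 0.00 for all genes. Nr4a1 had the largest, at -0.56 (95% interval -1.32 to 0.19, limma adjusted p = 0.865). It read 8.71, 10.8, 13.4 and 11.6 in DW males and 7.86, 9.90, 20.1 and 47.7 in SW males. The single value of 47.7 in SW male 124 was the highest of the 24 animals. Without that animal the Nr4a1 difference was -0.08, and the members split into 4 higher and 6 lower with a median of -0.00. Without SW male 84, all 10 lay lower in DW males, with a median of -0.29 and none called. The other intervals for males reached from -1.05 at the lowest (Junb) to 0.93 at the highest (Fosb), so changes of up to about that size remain within the error. The weaning difference of females minus that of males was negative for 9 of 10 members (median -0.31, from -0.85 for Egr1 to 0.01 for Nr4a1). Limma, edgeR and DESeq2 called 0 of 10 for this contrast, with 0 under 0.05 unadjusted by each tool (0.0187% of all genes were called by limma). Without animals 82 and 83 the same contrast was negative for 4 and positive for 6 (median 0.11), with Egr1 at 0.13 and Junb at 0.26.

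From p21 to p28 limma called none of the 10 members. With 11.6% to 15.0% of all genes called in the 4 comparisons, 0 of 10 lies near the background share. The 2 comparisons within a sex share their p21 animals. Standard weaning against p21 called 0 members by limma in males (11.9% of all genes were called) and 0 in females (11.6%). Every member overlapped in males, where 16.2% of all genes did not. Unadjusted p-values under 0.05 numbered 0 and 1 by limma, 2 and 0 by edgeR, and 2 and 1 by DESeq2. In females Jun and Junb did not overlap, as was so for 21.5% of all genes. Junb read 2.38, 3.04, 3.05 and 2.20 at p21 and 3.84, 4.67, 5.90 and 7.63 in SW females. Its difference was 0.80 (95% interval 0.02 to 1.58, limma adjusted p = 0.194), and it was called when the 2 groups were fitted alone. Jun, its partner in AP-1, read 22.2 to 25.8 at p21 and 26.3 to 32.3 in SW females (0.30, 95% interval -0.15 to 0.75). In males the same 2 genes lay at -0.03 (Jun) and 0.31 (Junb). Among the 10 members, 8 lay higher and 2 lower in SW than in p21 females (median 0.16). With the GC trend of each library removed, 7 lay higher and 3 lower (median 0.10). With tissue marker scores as covariates, 4 lay higher and 6 lower (median -0.13). Neither setting called a member. Junb is the most GC-rich member, and the part of GC reading in its difference was not tested.

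Delayed weaning against p21 also called 0 members by limma, in males (15.0% of all genes were called) and in females (12.1%). Unadjusted p-values under 0.05 numbered 1 and 2 by limma, 2 and 1 by edgeR, and 2 and 1 by DESeq2. DESeq2 called Fos and Fosb lower in DW males, and edgeR called 0 in either sex. Every member overlapped between DW and p21 males, where 23.1% of all genes did not. Fos in DW males lay -0.69 from p21 males (95% interval -1.26 to -0.12, limma adjusted p = 0.0939). Without p21 male 37, which had the lowest Fos value of its group (1.72), limma called it. Fosb read 1.79, 2.27, 1.53 and 1.82 in DW females and 6.22, 3.90, 3.50 and 2.42 in p21 females, with no overlap, as was so for 15.1% of all genes (-0.77, 95% interval -1.67 to 0.14). Fosb in p21 males held the widest spread of any group: 2.00, 3.41, 1.05 and 17.1. All 10 members lay lower in DW females than at p21 (median -0.34, against 0.00 for all genes). Without DW female 76 limma called Dusp1 and Zfp36 there, and without DW female 77 Dusp1 and Egr1. Without 82 and 83, 5 members lay lower and 5 higher (median 0.01), and those 3 genes lay at -0.04 (Dusp1), 0.06 (Zfp36) and 0.12 (Egr1).

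Cell type markers also moved with age. Macrophage markers were called higher for 7 of 9 in SW males, 7 in SW females, 9 in DW males and 7 in DW females. Their sums at p21 were 328 to 398 in females and 373 to 508 in males, below every p28 animal (670 to 1043). Skeletal muscle markers were called higher for 9 of 11 in both male comparisons, and for 1 in SW females and 0 in DW females. Erythroid markers were called lower for 5 of 7 in SW males, 3 in SW females, 5 in DW males and 7 in DW females. Schwann cell markers were called lower for 3, 4, 2 and 3 of 6 in the same order. Mammary markers were called higher for 6 of 10 in SW females and 1 in DW females. Without DW females 82 and 83, 1 erythroid, 1 Schwann cell, 8 macrophage and 1 mammary marker were called in DW females. The erythroid median then went from -1.78 to -1.28. The part of these cells in the members' age differences was not tested.

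The members varied more between animals of the same group than most genes did. The SD within groups on the log2(value + 1) scale had a median of 0.46 over the members and 0.21 over all genes, and each of the 10 lay above 75% of all genes. Among genes within 0.5 log2 units of the same level, 8 of the 10 lay above 90%, with Jun at 84.9% and Fos at 88.3%. With the GC trend of each library removed, the SD was smaller for each member but Atf3 (0.47 before, 0.48 after). Junb went from 0.58 to 0.33, Ier2 from 0.45 to 0.29, Jun from 0.32 to 0.25 and Fos from 0.42 to 0.41. The shares above were taken before that removal. A few animals were high or low across many members at once. P21 male 54 was the highest of its group for 8 of 10, and p21 male 37 the lowest for 8. SW male 124 was the highest of its group for 8, and SW male 84 the lowest for 8. DW female 83 was the lowest of its group for 7 and among the lowest 3 of all 24 animals for 7. P21 male 53 and SW male 84 also had the fewest genes detected, at 14054 and 15497.

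**Figure D3:**
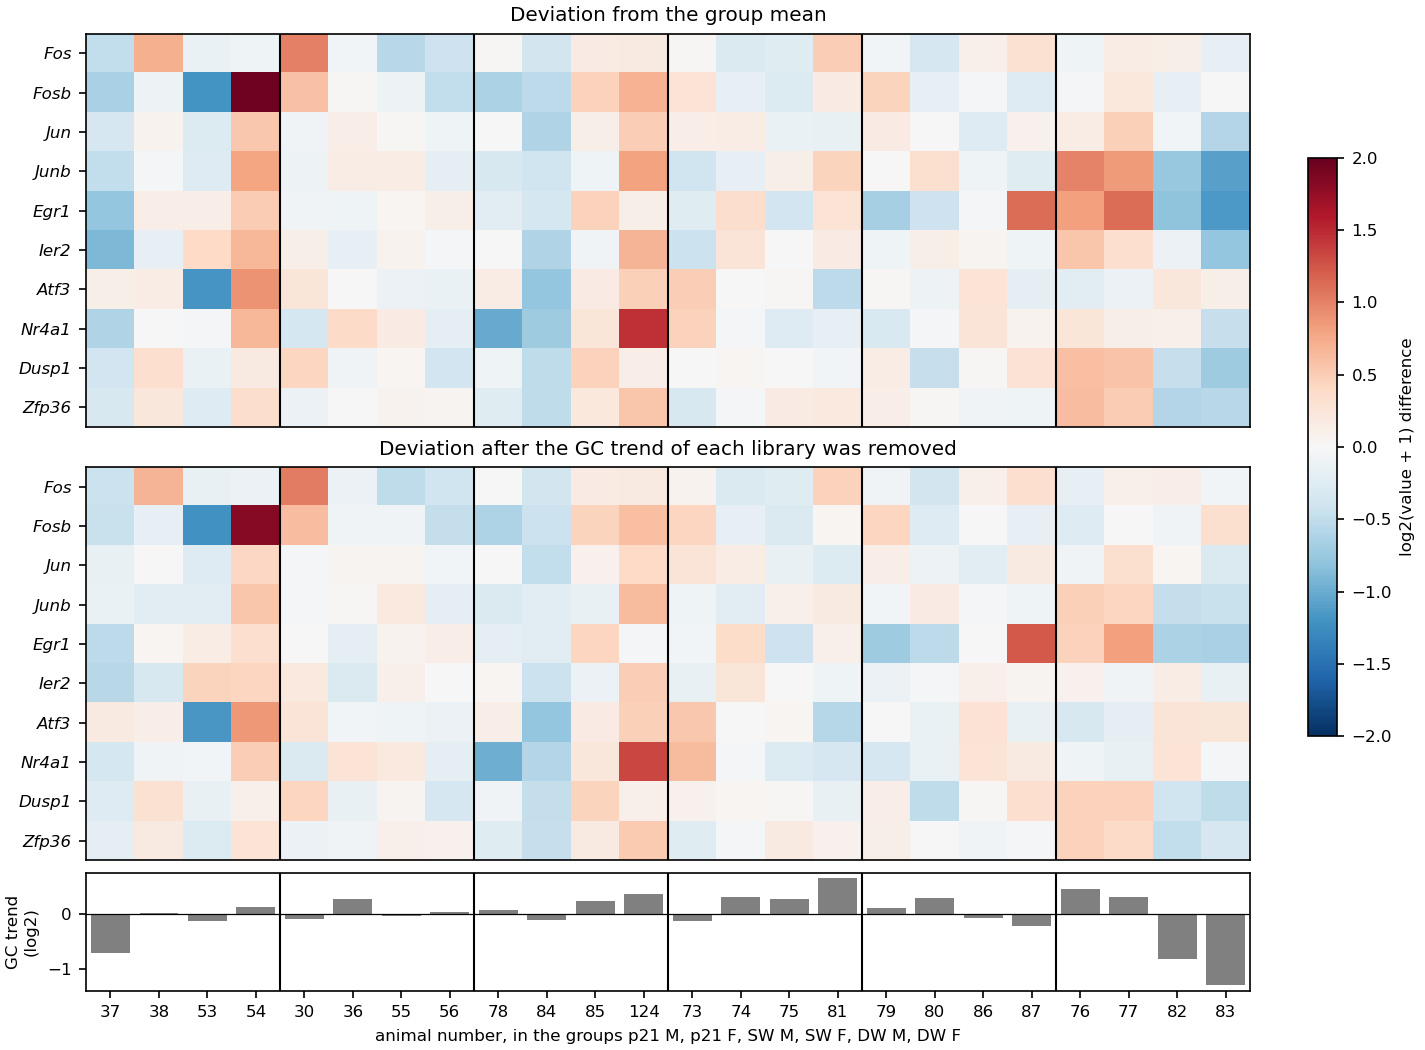
Deviation of each gene from its group mean in log2(value + 1), by animal, before (upper panel) and after (middle panel) removal of each library's GC trend, with the trend itself (highest minus lowest GC bin, log2) as bars below. P21 male 54 and SW male 124 stand high and SW male 84 low across rows. DW females 82 and 83, with GC bars of -0.83 and -1.30, stand low for Junb, Egr1, Dusp1 and Zfp36 in both panels. Atf3 stands above its group mean in these animals in both panels.

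The members varied together within groups. Over the 24 animals, with group means removed, Pearson's r was positive for 44 of 45 pairs, with a median of 0.53. In a two-sided permutation test within groups (100000 permutations, Benjamini-Hochberg over 45 pairs), 18 pairs passed by Pearson's r and 11 by Spearman's rho. Junb and Zfp36 were the closest pair: r = 0.92 (adjusted permutation p = 0.0009), rho = 0.91 (adjusted permutation p = 0.00405), and r = 0.90 without the 2 animals farthest from the median of Junb. Junb with Ier2 (r = 0.79), Egr1 with Dusp1 (0.76) and Jun with Zfp36 (0.74) followed. Fos stood apart, with a mean r of 0.24 to the other members against 0.60 for Jun, and its closest partner was Dusp1 (r = 0.53). Atf3 had a mean r of 0.25, with -0.10 to Egr1. Its highest was 0.71, to Fosb, which did not pass (adjusted permutation p = 0.056) and was 0.40 without p21 males 53 and 54.

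Correlation of this size also occurred among other genes, though less often, and the number of pairs that passed depended on few animals. Of all gene pairs, 31.4% had an absolute r at least as large as the weakest called member pair (0.39). Only 8.28% lay above 0.53, the median that splits the member pairs evenly. The median over all gene pairs was 0.004. The 18 called member pairs were counted by adjusted permutation p, a measure unlike the share of 31.4%. Each pair was also read without the 2 animals farthest from the median of its first gene. The median r was then 0.44, and all 18 called pairs kept a positive r. Without DW females 82 and 83 the median was 0.44 and 2 pairs passed, Junb with Zfp36 among them (r = 0.85, adjusted permutation p = 0.0027). Leaving out 1 animal at a time left 1 to 24 pairs: 1 without SW male 124, 2 without p21 male 37, 3 without p21 male 54, 4 without SW male 84, 5 without DW female 83 and 8 without DW female 77. The trend of p21 male 37, the lowest of its group for 8 members, was the lowest after those of DW females 82 and 83, and that of SW female 81 was the highest of the 24. With the GC trend removed the median r was 0.35, 43 pairs were positive, and 0 passed (11 at an unadjusted permutation p under 0.05, against 25 before). Junb with Zfp36 then had r = 0.82 (adjusted permutation p = 0.0864) and Fosb with Atf3 0.74 (adjusted permutation p = 0.123).

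**Figure D4:**
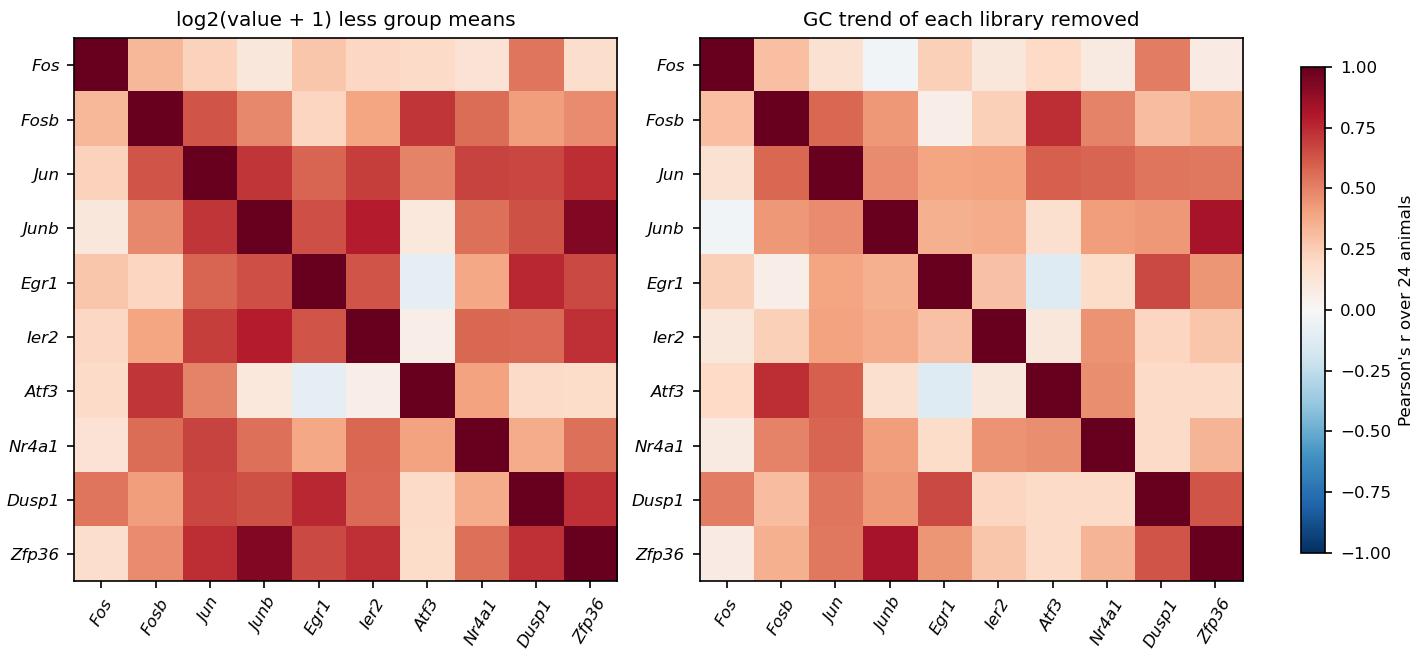
Pearson's r over 24 animals for each pair of the 10 genes, on log2(value + 1) less group means (left) and after removal of each library's GC trend (right). The block of Jun, Junb, Ier2, Dusp1 and Zfp36 is paler on the right, while Junb with Zfp36 stands at 0.82 and Fosb with Atf3 at 0.74, neither of which passed the test there.

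Outside the members, the gene whose pattern was most like theirs was Nab2, which encodes a corepressor of EGR factors. Its mean r with the 10 members over 24 animals was 0.65. Wdr33 (0.65), Khk (0.63), Gtf2ird2 (0.63) and Cbx8 (0.63) came next, and none of these 4 was in a list of early response genes. Nab2 has 60.1% GC, above 96.6% of genes, and its mean r was 0.18 with the GC trend removed. In that setting Tob2 (0.52), Hdac8 (0.50) and Kin (0.50) led.

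The wider pathway was read from lists of related genes. With weaning, 0 of 20 other AP-1 and CREB/ATF genes, 0 of 6 EGR and NR4A genes with their corepressors and 0 of 14 ERK feedback genes were called in either sex. In DW females their medians were -0.05, -0.05 and -0.07, against -0.02 for all genes (-0.01, -0.04 and -0.06 without DW females 82 and 83). The largest differences of DW females in these lists were Jund (-0.68, limma adjusted p = 0.204), Nr4a2 (-0.61, 0.0793) and Dusp14 (-0.51, 0.165). Srf itself lay at -0.84 (limma adjusted p = 0.169). Jund lay at 0.10 and Srf at 0.03 without DW females 82 and 83, while Nr4a2 lay at -0.42 and Dusp14 at -0.44. Of 11 inflammatory early response genes, 1 rose in DW females, beside 1.27% of all genes called: the chemokine gene Ccl7 (0.61, 1.75 ± 0.557 against 0.795 ± 0.289, SD, n = 4 each, limma adjusted p = 0.0497). Without 82 and 83 it was 0.42 and not called (limma adjusted p = 0.797).

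Between the sexes, Plk2 and Ccn2 were called among 34 other early response genes, whose median was -0.13 in SW males against SW females (-0.01 for all genes). These 2 of 34 stand beside 3.54% of all genes called in SW and 2.46% in DW animals. Plk2, a polo-like kinase gene, was lower in males in SW (-1.01, limma adjusted p = 3.1e-05) and in DW animals (-0.88, 0.000465). Ccn2, which encodes connective tissue growth factor, was lower in males as well (-1.24 in SW, limma adjusted p = 0.00177, and -0.90 in DW animals, 0.0481). The DW difference of Plk2 without DW females 82 and 83 was -0.78 (limma adjusted p = 0.0169) and that of Ccn2 -0.90 (0.241). Hspa1b, an inducible heat shock gene, followed the same order, at 0.401 ± 0.159 against 1.89 ± 0.502 in SW animals (SD, n = 4 each), a difference of -1.03 (limma adjusted p = 3.94e-06). Its near-identical copy Hspa1a (-0.62, limma adjusted p = 0.115) can share its reads, so the split between them is uncertain. Egr2, a close relative of Egr1, lay at -0.94 in SW males and was not called (limma adjusted p = 0.063). These differences stand beside the same mammary marker sums as that of Fos, and the part of those cells was not tested.

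With age, the shares called in these lists are read beside 11.9% (SW males), 11.6% (SW females), 15.0% (DW males) and 12.1% (DW females) of all genes. Elk4, a ternary complex factor that works with SRF, rose in all 4 comparisons of p28 with p21, by 1.33 to 1.53 (limma adjusted p from 0.00125 to 0.00345), from 22.3 ± 8.21 at p21 to 56.4 ± 12.8 in SW males (SD, n = 4 each). Spry4, an inhibitor of ERK signalling, fell in all 4, from 41.9 ± 5.28 to 25.4 ± 0.754 in SW males (-0.69, limma adjusted p = 0.00735). Of 14 ERK feedback genes, 1 rose and 2 fell in SW males, 1 and 1 in SW females, 1 and 4 in DW males, and 0 and 2 in DW females. Dusp6, an ERK phosphatase, fell in both male comparisons (-0.44 and -0.52, limma adjusted p = 0.0388 and 0.0142). Of 34 other early response genes, 1 rose and 0 fell in SW males, 1 and 1 in SW females, 0 and 4 in DW males, and 1 and 2 in DW females. Plk2 rose in SW females (0.88, limma adjusted p = 0.000244) and in DW females (0.56, 0.0131), and Irs2, an insulin receptor substrate gene, rose in SW males (0.73, 0.0277). Arc fell in 3 of the 4 comparisons, at -1.11 in DW females (limma adjusted p = 0.0107). Without DW females 82 and 83 neither Arc (-0.57, limma adjusted p = 0.219) nor Plk2 (0.46, 0.115) was called in DW females. Cebpb fell in DW males (-0.99, limma adjusted p = 0.0169), as did Zfp36l2, a relative of Zfp36 (-0.56, 0.0109). The comparisons within a sex share their p21 animals, so the 4 are not separate tests.

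Genes of the circadian clock and of the glucocorticoid response were read in the same way. Among 14 clock genes, 5 fell and 1 rose from p21 to SW females (11.6% of all genes were called), with Tef at -1.18 (limma adjusted p = 0.0013), Per2 at -1.28 (0.0331) and Npas2 at 1.51 (0.00634). In DW females 3 fell (12.1% of all genes were called), Hlf at -1.06 (limma adjusted p = 0.00823), Tef at -0.85 (0.0183) and Per3 at -0.77 (0.0285). Without DW females 82 and 83 Tef was still called there (-0.996, limma adjusted p = 0.0333), and Hlf (-0.69, 0.138) and Per3 (-0.81, 0.0852) were not. In males 0 were called. Among 11 glucocorticoid-induced genes, 2 fell in SW females (11.6% of all genes were called), Fkbp5 (-1.25, limma adjusted p = 0.0224) and Cdkn1a (-0.75, 0.0291). In DW males 2 rose (15.0% of all genes were called), Fkbp5 (1.30, limma adjusted p = 0.0175) and Sult1a1 (0.59, 0.0239). In SW males and DW females 0 of the 11 were called, all against p21.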

How the data were processed

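Poly(A) RNA of inguinal fat from 24 mice was sequenced (KAPA mRNA HyperPrep kit, NovaSeqXPlus, per the labels). The authors deposited a signal for each gene and sample, a read number divided by a factor of the sample. The submitters' processing notes list fastp, HISAT2, featureCounts, DESeq2 1.38.3 and mm10, with no role or order. The annotation and the strand setting are not given in the sources used here, so reads of overlapping genes cannot be told apart. In each sample 100% of values were whole multiples of 1 read's worth (tolerance 0.001), so whole reads were recovered. These totals cover the listed genes, and reads may be copies of 1 molecule. Of 16208 rows, 90 repeats were left out. Relative to edgeR's TMM, the deposited scaling was 0.974 to 1.04. For 15 comparisons the authors deposited log2 fold changes and p-values. The p-value columns are headed as adjusted, but at least 99.95% of values in each are distinct and 7.593% to 31.41% lie under 0.05, so they were not used. The log2 values appear where the authors' deposited table is cited.

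Groups came from the age, sex and weaning labels. For p21 libraries the age was taken from descriptions and age labels, with which the titles differ. No animal number occurs in more than 1 group, so nothing was paired. Over 36 pairs of replicates the smallest chi-square per degree of freedom was 77.1, so none was merged. Whether a group's mice came from separate litters is not given in the sources used here.

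Genes were kept by filterByExpr (minimum count 10), leaving 16005. One limma fit (limma 3.58.1, R 4.3.3, variance trend, 18 residual degrees of freedom) on log2(value + 1) held all 6 groups. Called means a limma p under 0.05 after Benjamini-Hochberg adjustment over all genes tested. edgeR 4.0.16 and DESeq2 1.42.0 on the recovered reads were alternatives. On simulated data with 200 of 16005 genes changed by 1 (log2) between DW and SW males, limma recovered 77 with 3 false calls, edgeR 102 with 8 and DESeq2 116 with 15. For the GC trend, 13136 genes with a mean value of at least 1 were binned by transcript GC. The other alternatives were another pseudocount (0.1), no filter on low reads, fitting only the groups compared, no variance trend, tissue marker scores or the run of animal numbers as covariates, and each animal left out. Removal of the GC trend and the fits without 2 animals were chosen after seeing the data. Members and gene lists were chosen with earlier results of these data known. Genes named are the members, list genes called in a comparison or among the 4 largest differences there, and the 10 genes most like the members by mean r.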

Additional observations from a re-analysis of the deposited data

How the results depend on the processing

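Of 2190 values of the 110 member differences recomputed under other settings, 2170 kept their side of the threshold, 14 gained a call and 6 lost it, and no called value changed sign. The 6 losses were all Fos in SW males against SW females, where 0 members were called with tissue scores as covariates and without p21 male 53 and SW male 84. Gains gave 1 member (Fos) between DW males and DW females by DESeq2 and with only the groups compared, and 1 (Junb) between SW and p21 females with only the groups compared. Between DW and p21 males there were 2 by DESeq2, 1 with tissue scores (Fos, -1.28) and 1 with the GC trend removed (Ier2, -0.59, limma adjusted p = 0.0398). The causes were not tested. Leaving out 1 animal at a time gave 0 to 2 members between DW and SW females (2 without DW female 76, Junb and Dusp1), 0 to 1 between DW and p21 males, 0 to 2 between DW and p21 females, 0 to 1 between SW males and females, and 0 in every other comparison. Member pairs that passed numbered 1 to 24 without 1 animal, 2 without DW females 82 and 83, 3 without p21 male 53 and SW male 84, and 0 with the GC trend removed. No paired analysis was possible because the groups compared share no animal numbers. Low reads limit Atf3, with 1 read in p21 male 53, and Fosb and Junb, with at least 64 and 60 reads in every library.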
